A study of Mus musculus with 4 samples.

Results

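Disallowed genes are genes that many other tissues or cell types express but that pancreatic beta cells keep low. The 10 examined here, Ldha, Slc16a1, Hk1, Hk2, Acot7, Oat, Igfbp4, Pdgfra, Cxcl12 and Maf, are a fixed set of names, matched to the gene symbols of the deposited tables. All 10 were found among 23235 symbols, each as a single row with a usable value in every library. RNA was sequenced from isolated pancreatic islets of C57BL/6 mice in 4 groups of 1 pooled library each: KR mutant and WT mice that were fasted and then refed for 6 h, and KR mutant and WT mice that were only fasted. The labels give the fast as 48 h, whereas the extraction protocol gives 24 h, and all 4 groups share that fast. Islets of 3 mice were combined per genotype. Whether 3 mice went into each library or were split between feeding states is not clear from the protocol. The labels give neither age nor sex. KR mice are known to carry FoxO1, a transcription factor, with arginine in place of the lysines that become acetylated; as a knock-in, this change is not restricted to beta cells.

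The beta cell measures glucose by burning it, and several disallowed genes would interfere with that. The high-affinity hexokinases Hk1 and Hk2 would phosphorylate glucose even when it is low. Pyruvate is sent into mitochondria; lactate dehydrogenase A (Ldha) would turn it to lactate, and the monocarboxylate carrier MCT1 (Slc16a1) would let lactate and pyruvate from muscle in and trigger insulin release during exercise. DNA methylation by Dnmt3a, histone marks and microRNAs of the miR-29 family are known to hold some of these genes down in mouse beta cells. Whole islets also hold alpha and delta cells, vessels, stromal cells and macrophages, in which several of these genes are allowed. In such bulk samples, fewer cells of a type and less RNA per cell cannot be told apart.

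The upstream sequence of 4 of the genes is shown first, because they stand for the 3 patterns found below: a steady gene (Ldha), genes lower after refeeding (Slc16a1 and Igfbp4) and a gene higher after refeeding (Oat). Each is the 250 bases before a RefSeq start in build GRCm38.p6, written 5′ to 3′ on the strand of the gene; the expression tables use build mm9, so these coordinates are not those of the tables. Capitals mark matches to E-box CACGTG, to the shorter core ACGTG bound by hypoxia-inducible factors (HIF), or to TATAAA.
Ldha, chr7:46845554-46845803, plus strand: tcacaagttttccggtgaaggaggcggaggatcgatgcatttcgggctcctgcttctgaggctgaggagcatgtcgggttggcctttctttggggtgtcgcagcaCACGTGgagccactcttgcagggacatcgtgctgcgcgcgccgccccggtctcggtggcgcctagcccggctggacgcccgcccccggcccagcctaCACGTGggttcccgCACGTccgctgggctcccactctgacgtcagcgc
Slc16a1, chr3:104638414-104638663, plus strand: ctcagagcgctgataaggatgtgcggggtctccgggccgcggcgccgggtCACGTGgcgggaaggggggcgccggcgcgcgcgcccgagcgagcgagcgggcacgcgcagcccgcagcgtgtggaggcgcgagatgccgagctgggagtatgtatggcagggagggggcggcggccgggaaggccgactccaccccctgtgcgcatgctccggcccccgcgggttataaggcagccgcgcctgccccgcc
Igfbp4, chr11:99040994-99041243, plus strand: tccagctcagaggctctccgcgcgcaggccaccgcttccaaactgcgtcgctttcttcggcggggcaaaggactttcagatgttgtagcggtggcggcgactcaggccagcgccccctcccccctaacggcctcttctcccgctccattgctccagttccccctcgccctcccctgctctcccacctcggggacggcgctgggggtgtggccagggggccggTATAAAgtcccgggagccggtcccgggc
Oat, chr7:132576399-132576648, minus strand: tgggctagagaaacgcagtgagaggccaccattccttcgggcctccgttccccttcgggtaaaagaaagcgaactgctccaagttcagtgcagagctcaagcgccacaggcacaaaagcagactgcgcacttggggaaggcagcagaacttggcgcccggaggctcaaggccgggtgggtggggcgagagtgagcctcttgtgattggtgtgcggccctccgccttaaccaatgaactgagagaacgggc

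The Ldha window shown holds 2 E-boxes, which begin 145 and 48 bases before the start, and a further HIF core at 34 bases. Another Ldha window, chr7:46846832-46847081, is not shown and holds 0 of these motifs. The Slc16a1 window holds 1 E-box at 200 bases, and the Igfbp4 window holds a TATAAA on the sense strand at 28 bases. Every CACGTG also holds ACGTG on both strands, so these motifs overlap. Of 32851 promoter windows of this length, 6.02% hold an E-box, 16.6% a HIF core and 7.59% a sense TATAAA. RefSeq windows matched 9 of the 10 genes, with 11 windows in all. Of these 11, 2 held an E-box (Ldha and Slc16a1), 3 a HIF core (Ldha, Slc16a1 and Hk2) and 1 a TATAAA. The FoxO motif TGTTTAC and the ATF4 motif TGATGNAA, searched on both strands, were in 0 of the 11 windows, against 3.17% and 3.45% of all windows. The windows of these genes held a median of 14 CpG dinucleotides and 62.8% G and C, against 6 and 52.4% over all windows. Slc16a1 had the most, with 37 CpG. Ldha had 25 at the start shown and 9 at the other, Hk2 had 25, Igfbp4 had 22 and the upstream Hk1 start had 1.

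The values are FPKM, fragments per kilobase of transcript scaled to the mapped fragments of the library, with the lower and upper bound deposited for each. The squared ratio of an FPKM to its error gives the number of fragments behind it. By that measure the libraries held 11074797 fragments in refed KR, 18096754 in refed WT, 25711229 in fasted KR (without Ins2, whose level there was not measured) and 26407398 in fasted WT, so the refed libraries were the shallower ones. The islet label fitted the hormone genes, with Gcg at 21260 to 26160 FPKM and Ins1 at 3498 to 12200 FPKM. Of 9 measured acinar genes 1 to 5 were at 0 in each library. Because each group is 1 library, differences between 2 libraries are given with no p-value, and their intervals cover counting error only.

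All 10 genes lay below the median of expressed genes in every library. That median was 7.41 FPKM in refed KR, 7.25 in refed WT, 7.07 in fasted KR and 7.30 in fasted WT, over the genes above 0. The median of the 10 genes was 0.478, 0.688, 1.33 and 1.09 FPKM in the same order of libraries. Genes under 1 FPKM numbered 6 in refed KR, 7 in refed WT, 4 in fasted KR and 5 in fasted WT. Ldha and Oat were the most abundant, at percentiles 38.1 to 45.9 of the expressed genes. The least abundant were Pdgfra in refed KR, fasted KR and fasted WT and Maf in refed WT.

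**Figure D1:**
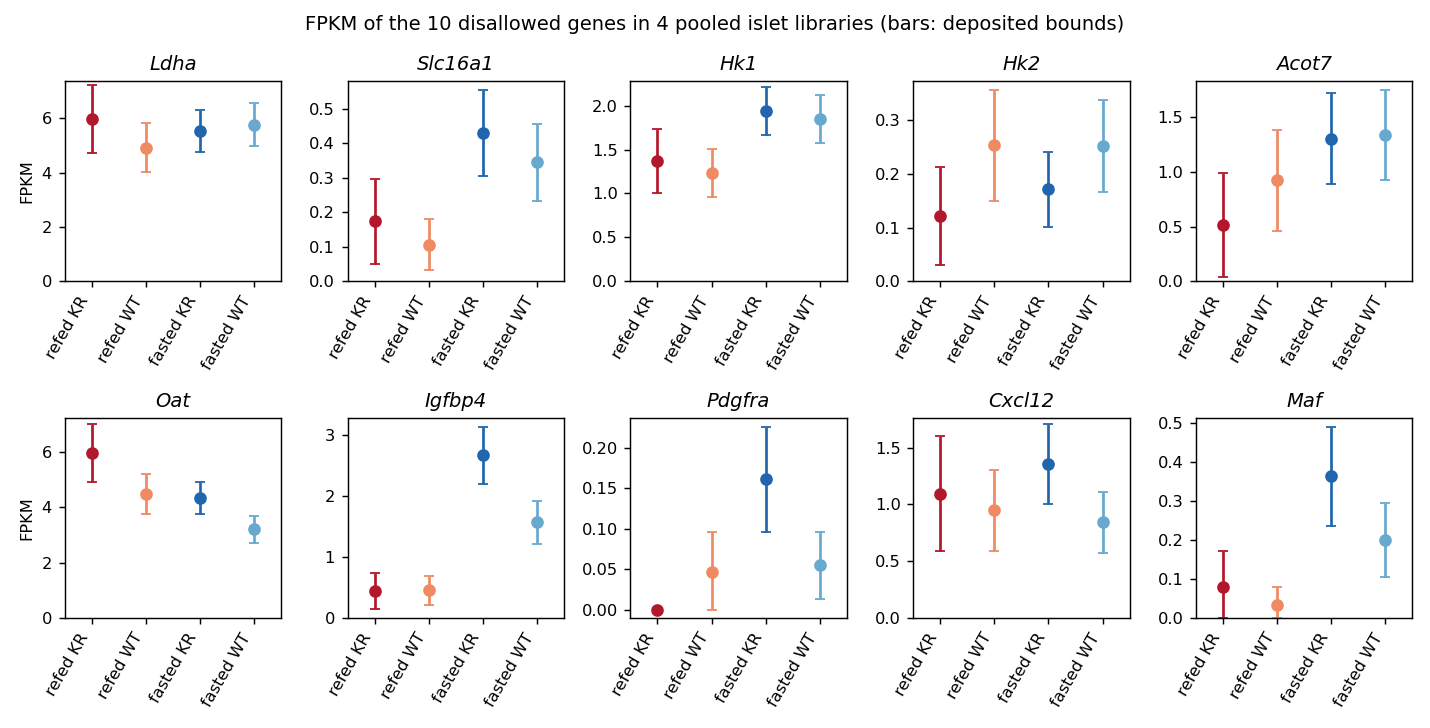
FPKM of each gene (one panel each, with its own y axis) in the refed KR, refed WT, fasted KR and fasted WT libraries; points are the deposited FPKM and bars the deposited bounds, with 1 pooled library per group. Slc16a1, Igfbp4 and Maf lie lower in both refed libraries than in both fasted ones, while Ldha stays between 4.91 and 5.96 FPKM.

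Among the enzymes of glucose and pyruvate use, Ldha was steady. It lies on chromosome 7 at 54101174 to 54110997 (mm9). Its level was 5.96 FPKM in refed KR (bounds 4.70 to 7.21), 4.91 in refed WT (4.02 to 5.81), 5.52 in fasted KR (4.75 to 6.29) and 5.76 in fasted WT (4.97 to 6.56). The bounds of all 4 libraries overlap, with 90 to 211 fragments behind each value. The refed over fasted ratio was 1.08 in KR (95% exact interval 0.829 to 1.38) and 0.853 in WT (0.675 to 1.07), so a change of 2-fold in either direction lies outside both counting intervals. Ldhb, the subunit that favours the reverse reaction, was more abundant in each library and rose with refeeding by 0.57 ± 0.08 on the log2(FPKM + 1) scale (SE of the limma fit over 4 libraries, adjusted p = 0.000424). Ldha therefore came to 28.7% of Ldhb in refed KR and 23.4% in refed WT, against 37.1% in fasted KR and 45.7% in fasted WT.

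Slc16a1, on chromosome 3 at 104442591 to 104462385, was low throughout and lower after refeeding. It had 0.174 FPKM in refed KR (bounds 0.0508 to 0.296) and 0.106 in refed WT (0.0311 to 0.181), against 0.431 in fasted KR (0.306 to 0.555) and 0.345 in fasted WT (0.233 to 0.456). The bounds of the refed and the fasted library did not overlap in either genotype, although only 8 fragments stood behind each refed value, against 48 in fasted KR and 38 in fasted WT. The refed over fasted ratio was 0.403 in KR (0.165 to 0.860) and 0.308 in WT (0.124 to 0.671). Basigin (Bsg), the chaperone that MCT1 needs to reach the membrane, was at 614 and 593 FPKM in refed KR and WT and at 531 and 484 in fasted KR and WT. The carrier thus amounted to 0.0179% to 0.0811% of its chaperone. Other lactate carriers were also scarce, with Slc16a3 (MCT4) at 0.235 to 0.438 FPKM and Slc16a7 (MCT2) at 0.346 to 0.828 FPKM over the libraries.

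Hk1, on chromosome 10 at 61731603 to 61842656, had 1.37 FPKM in refed KR (bounds 1.003 to 1.73), 1.23 in refed WT (0.965 to 1.504), 1.94 in fasted KR (1.67 to 2.22) and 1.85 in fasted WT (1.58 to 2.12). Both refed values lie below both fasted ones, with overlapping bounds in KR and separate bounds in WT. The fitted change was -0.33 ± 0.13 and missed the threshold (adjusted p = 0.0598); over 7 alternatives that p ran from 0.0068 to 0.172 and passed in 3.

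Hk2, on chromosome 6 at 82675021 to 82724448, was the scarcer hexokinase, with 0.121 FPKM in refed KR (bounds 0.0295 to 0.212), 0.253 in refed WT (0.150 to 0.357), 0.171 in fasted KR (0.101 to 0.241) and 0.252 in fasted WT (0.167 to 0.338). The KR value was below the WT value in each feeding state, with overlapping bounds both times. The KR over WT ratio was 0.477 in the refed pair (0.173 to 1.14) and 0.678 in the fasted pair (0.386 to 1.17). Hkdc1, a further hexokinase, was listed at 0 in 3 libraries and at 0.0818 FPKM in fasted WT.

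**Figure D2:**
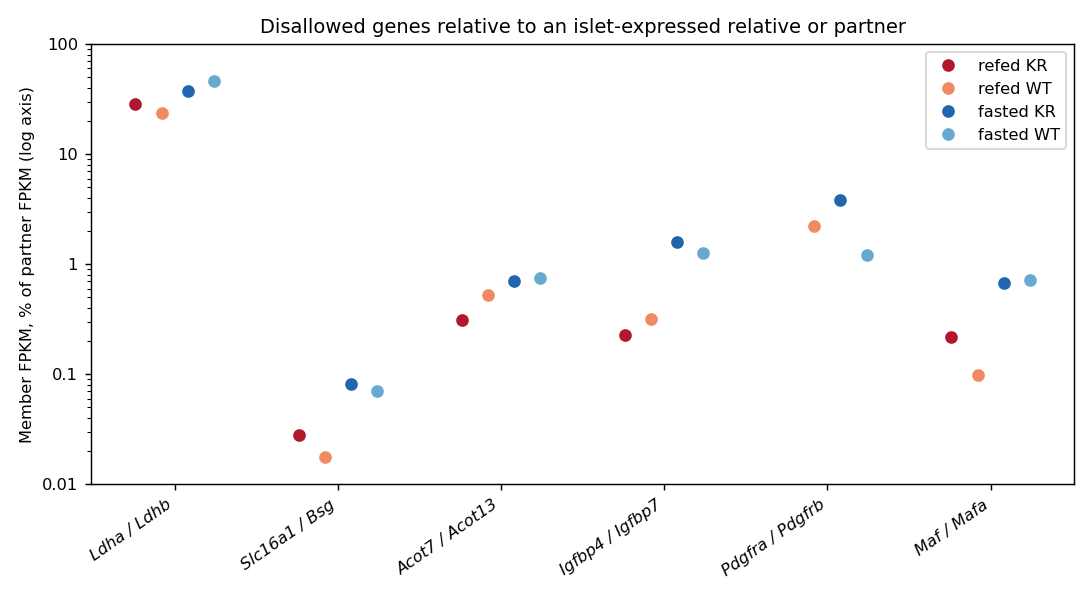
FPKM of a disallowed gene as a percentage of the FPKM of a relative or partner, on a log axis, by library. Ldha is 23.4% to 45.7% of Ldhb, whereas Slc16a1 stays under 0.1% of Bsg; Pdgfra is listed at 0 in refed KR and has no point there.

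Oat and Acot7 moved in opposite directions with refeeding. Oat encodes ornithine aminotransferase, a mitochondrial enzyme that links ornithine to glutamate and proline, and lies on chromosome 7 at 139749158 to 139768081. Its level was 5.97 FPKM in refed KR (bounds 4.91 to 7.03), 4.49 in refed WT (3.77 to 5.21), 4.34 in fasted KR (3.75 to 4.92) and 3.20 in fasted WT (2.70 to 3.71). It rose with refeeding by 0.39 ± 0.10 in the limma fit (adjusted p = 0.00822), with a refed over fasted ratio of 1.38 in KR (1.10 to 1.72) and 1.40 in WT (1.12 to 1.76). In WT the bounds of the refed and the fasted library were separate, and in KR they overlapped narrowly.

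Acot7, on chromosome 4 at 151552209 to 151645964, encodes a cytosolic thioesterase that splits long-chain acyl-CoA. It had 0.513 FPKM in refed KR (bounds 0.0358 to 0.990) and 0.923 in refed WT (0.462 to 1.38), against 1.30 in fasted KR (0.885 to 1.72) and 1.33 in fasted WT (0.922 to 1.75). The bounds of refed and fasted overlapped in both genotypes, with 5 fragments behind the refed KR value and 16 behind refed WT. The fitted fall of -0.44 ± 0.16 passed narrowly (limma, adjusted p = 0.0427), again for a gene with a mean of at least 1 FPKM only through its fasted libraries. It no longer passed with a pseudocount of 0.1 (adjusted p = 0.0517) or of 5 (0.0502); the range over 7 alternatives was 0.00896 to 0.269.

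Of 9 tested other thioesterase genes, 4 fell with refeeding, 1 rose and 4 did not pass, at a median log2 change of -0.13, against -0.01 over all genes. Among all tested genes 29.2% fell with refeeding and 27.7% rose. Them4 fell by 1.08, Acot11 by 0.64 and Acot1 by 0.39. Of 16 tested enzymes of ornithine, proline and polyamine metabolism 7 rose, 4 fell and 5 did not pass. Aldh18a1, the first step from glutamate towards proline and ornithine, fell by 1.16, the spermidine synthase gene Srm by 0.68 and the polyamine acetylase gene Sat1 by 0.62. Amd1, counted among the 7 that rose, reached a mean of 1 FPKM only through the refed libraries, with 8.13 and 4.75 FPKM in refed KR and WT, against 0.000823 and 0.000765 in fasted KR and WT.

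Of the secreted and cell surface members, Igfbp4 had the largest difference of the 6 tested genes. It encodes a binding protein that holds insulin-like growth factors away from their receptor, and lies on chromosome 11 at 98902574 to 98913957. Igfbp4 had 0.444 FPKM in refed KR (bounds 0.148 to 0.739) and 0.453 in refed WT (0.219 to 0.686), against 2.67 in fasted KR (2.20 to 3.14) and 1.57 in fasted WT (1.21 to 1.92). The refed libraries were alike, both lay far below the fasted ones, and fasted KR also lay above fasted WT with separate bounds. Igfbp4 fell with refeeding by 1.08 ± 0.17 in the limma fit (adjusted p = 0.000845), a test it entered, at a mean of at least 1 FPKM, only through the fasted libraries where it was high. The refed over fasted ratio was 0.166 in KR (0.0743 to 0.325) and 0.289 in WT (0.154 to 0.507). The KR over WT ratio was 0.980 in the refed pair (0.378 to 2.39) and 1.70 in the fasted pair (1.28 to 2.29).

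Of 14 tested IGF, PDGF and CXCL12 partners, 8 fell with refeeding, 2 rose and 4 did not pass, at a median of -0.55. Among all tested genes 29.2% fell and 27.7% rose. Igfbp5 fell by 1.67, the receptor gene Igf1r by 1.04, Igfbp3 by 0.99 and Pdgfrb, the receptor of stromal cells around vessels, by 0.74. Cxcr4, the receptor of CXCL12, fell by 0.65, Pdgfa by 0.60 and Pdgfb by 0.51, whereas Igfbp7 rose by 0.21.

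Pdgfra, the PDGF receptor of fibroblast-type cells, lies on chromosome 5 at 75548316 to 75594229 and was the scarcest member but for Maf in refed WT. It was listed at 0 in refed KR and had 0.0471 FPKM in refed WT (bounds 0 to 0.0961), 0.161 in fasted KR (0.0962 to 0.226) and 0.0551 in fasted WT (0.0138 to 0.0964). Fasted KR stands highest, with 25 fragments against 7 in fasted WT and 4 in refed WT, and its bounds meet those of fasted WT at the edge. The KR over WT ratio in the fasted pair was 2.93 (1.27 to 8.29).

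Cxcl12, on chromosome 6 at 117118553 to 117131386, encodes the chemokine SDF-1, which stromal and endothelial cells make. Its level was 1.09 FPKM in refed KR (bounds 0.587 to 1.60), 0.946 in refed WT (0.590 to 1.30), 1.36 in fasted KR (1.01 to 1.71) and 0.842 in fasted WT (0.574 to 1.11). All 4 libraries overlap in their bounds, and the KR over WT ratio in the fasted pair was 1.61 (1.05 to 2.44). Neither the refeeding difference, -0.05 ± 0.16 (adjusted p = 0.821), nor the KR difference, 0.23 ± 0.16 (adjusted p = 0.514), passed the limma test.

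Markers of stromal and vessel cells moved with the same contrast. The summed level of 12 mesenchymal genes was 41.9 FPKM in refed KR and 32.9 in refed WT, against 48.5 in fasted KR and 46.6 in fasted WT, and 0 of the 12 were at 0 in any library. Of the 9 tested, 6 fell with refeeding and 2 rose, where 29.2% of all tested genes fell and 27.7% rose. The sum of 9 endothelial genes was 16.5 in refed KR and 18.6 in refed WT, against 21.4 in fasted KR and 29.9 in fasted WT, again with 0 of the genes at 0. Of the 6 tested, 4 fell and 1 rose, and Cdh5 and Kdr among the 4 averaged at least 1 FPKM only through the fasted libraries. Other markers were higher after refeeding: of the beta cell genes 6 of 9 tested rose and 0 fell, of the duct genes 3 of 5 rose and 0 fell, and both tested acinar genes rose. The beta cell sum, without Ins2 and mostly Iapp, was 81120 and 57810 FPKM in refed KR and WT, against 55500 and 40790 in fasted KR and WT. The part of these cell types in the Igfbp4, Pdgfra, Slc16a1 and Oat values of the refed libraries was not tested.

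Maf, which encodes the large Maf factor c-Maf, lies on chromosome 8 at 118227153 to 118230794. It had 0.0800 FPKM in refed KR (bounds 0 to 0.172) and 0.0326 in refed WT (0 to 0.0788), against 0.364 in fasted KR (0.237 to 0.490) and 0.201 in fasted WT (0.106 to 0.295). Refed and fasted bounds were separate in both genotypes, on 3 and 2 fragments in the refed KR and WT libraries and 33 and 18 in the fasted ones. The refed over fasted ratio was 0.220 in KR (0.0432 to 0.701) and 0.163 in WT (0.0183 to 0.680). Mafa, the factor of mature beta cells, had 36.8 and 32.8 FPKM in refed KR and WT and 53.5 and 27.7 in fasted KR and WT, and Maf was at most 0.724% of it. The small Maf genes, whose proteins pair with other factors, fell with refeeding in the limma fit, Mafg by 1.003, Mafk by 0.63 and Maff by 0.37, and Mafa did not pass (-0.15 ± 0.14, adjusted p = 0.412). Macrophages express Maf, and the sum of 8 macrophage genes was 262 and 273 FPKM in refed KR and WT, against 298 and 304 in fasted KR and WT, with 0 at 0. By gene, 2 of the 8 fell with refeeding, 0 rose and 6 did not pass, where 29.2% of all tested genes fell and 27.7% rose. Lyz2 was the largest part of each sum, with 119.5 and 142.2 FPKM in refed KR and WT, against 149.1 and 170.3 in fasted KR and WT. The part of macrophages in the Maf values was not tested.

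**Figure D3:**
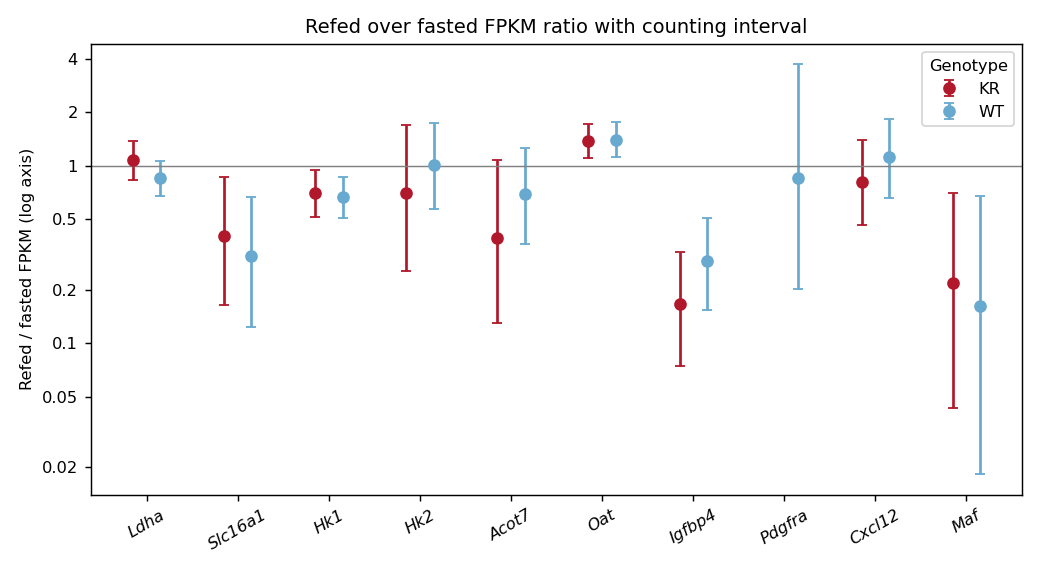
Ratio of refed to fasted FPKM for each gene on a log axis, in KR and in WT islets, with 95% exact intervals for counting error; 1 marks no difference. The intervals of Slc16a1, Hk1, Igfbp4 and Maf lie below 1 and those of Oat above 1 in both genotypes, and Pdgfra has no KR value because it is listed at 0 in refed KR.

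Taken by bounds, 3 of the 10 genes, Slc16a1, Igfbp4 and Maf, were lower in refed than in fasted libraries in both genotypes without overlap, and 0 were higher. Of 17451 genes with values, 17.5% were lower in this way, 14.3% higher and 31.8% either. Within KR 4 of the 10 were separate, all lower, among them Pdgfra, whose refed bounds are both 0 and so cannot overlap (39.5% of all genes separate, 22.8% lower, 16.8% higher). Within WT 5 of the 10 were, 4 lower and Oat higher (45.9% separate, 23.7% lower, 22.2% higher). Without regard to direction these counts lie close to the shares of all genes; by direction, more of the 10 were lower and fewer higher than among all genes, a difference that was not tested. On the log2(FPKM + 1) scale 1 of the 6 genes with a mean of at least 1 FPKM, Igfbp4 in KR, differed at least 2-fold between refed and fasted, where 2.33% of such genes did in KR and 3.51% in WT. The other 4 genes are too low to reach 2-fold on that scale, and their plain ratios are those given above.

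Only genes with a mean of at least 1 FPKM entered the limma test, an additive fit of feeding state and genotype over the 4 libraries, called at a Benjamini-Hochberg adjusted p under 0.05. That holds 6 of the 10 genes; Slc16a1, Hk2, Pdgfra and Maf were too low. Of the 6, 2 fell with refeeding (Igfbp4 and Acot7), 1 rose (Oat) and 3 did not pass, where 56.9% of all 11953 tested genes were called, 27.7% up and 29.2% down. Before adjustment 4 of the 6 were under 0.05, against 62.3% of all genes. Because Igfbp4 and Acot7 passed the filter on low values through the fasted libraries alone, this count is a description. The fit has 1 residual degree of freedom per gene, and with no filter on low values it called 0 of 23046 genes and 0 of the 10, beside 6207 and 4 at an unadjusted p under 0.05. On data simulated with genotype changes, the fit made more false genotype calls than the threshold allows. False calls between feeding states were not counted there, so calls that pass narrowly, such as that of Acot7, have no such check.

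The comparison of KR with WT is one of genotype, and the acetylation of FoxO1 was not measured in these data. None of the 6 tested genes passed (limma, 1.26% of all genes called, 0.602% higher and 0.661% lower). Before adjustment 1 of the 6, Oat, was under 0.05 (16.4% of all genes). With limma-voom 0 of the 6 were called, against 749 of all 11953 tested genes. Oat was nearest, higher in KR in both feeding states, by 0.34 ± 0.10 (adjusted p = 0.141, 0.0789 to 0.596 over 7 alternatives). Its KR over WT ratio was 1.33 in the refed pair (1.04 to 1.69) and 1.35 in the fasted pair (1.10 to 1.67). The KR differences of Ldha and Hk1 were 0.09 ± 0.10 (adjusted p = 0.721) and 0.07 ± 0.13 (adjusted p = 0.861). That of Acot7 was -0.18 ± 0.16 (adjusted p = 0.64) and that of Igfbp4 0.25 ± 0.17 (adjusted p = 0.518). By bounds, 0 of the 10 differed between KR and WT in the refed pair, where 11.7% of all genes did, 2.74% higher and 8.95% lower in KR. In the fasted pair 2 did, Oat and Igfbp4, both higher in KR, where 17.6% of all genes did, 6.19% higher and 11.4% lower. In both states together 0 of the 10 did, against 4.54% of all genes. Of the 6 tested genes 0 were 2-fold apart on the log2(FPKM + 1) scale, as were 0.368% of all tested genes in the refed and 0.243% in the fasted pair. The other 4 are too low to reach it there; in plain FPKM the KR over WT ratio of Maf in the refed pair was 2.45 (0.281 to 29.3). Called among the listed relatives were the glucose transporter gene Slc2a2, higher in KR by 0.69, Igfbp7, higher by 0.45, and Sat1, which fell by 0.39.

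Beta cell and lymphocyte markers moved with genotype, and so did 2 genes of the adipocyte list. Without Ins2, the sum of 9 beta cell genes was 81120 FPKM in refed KR against 57810 in refed WT, and 55500 in fasted KR against 40790 in fasted WT, with 0 of the genes at 0. Most of each sum was Iapp, with 66970 and 52780 FPKM in refed KR and WT and 46130 and 35460 in fasted KR and WT. By gene, 6 of the 9 tested were called higher in KR, 0 lower and 3 did not pass, where 0.602% of all tested genes were called higher and 0.661% lower. The sum of 6 lymphocyte genes was 16.6 FPKM in refed KR against 10.8 in refed WT, and 24.4 in fasted KR against 10.8 in fasted WT. Cd3e and Ms4a1 were at 0 in every library but fasted KR, and Cd79b in both WT libraries. The sum of 6 genes of the adipocyte list was lower in KR, at 141 FPKM in refed KR against 182 in refed WT, and 134 in fasted KR against 178 in fasted WT. Adipoq, Plin1, Lep and Cfd were at 0 in all 4 libraries, so only Fabp4 and Lpl entered that sum. Lpl made up nearly all of it, with 140 and 178 FPKM in refed KR and WT and 132 and 173 in fasted KR and WT. The 2 tested, Fabp4 and Lpl, fell by 1.24 and 0.37 in KR (limma, adjusted p = 0.00287 and 0.0186). What part the cells that express these genes have in the KR values of Oat, Igfbp4 and Pdgfra was not tested.

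**Figure D4:**
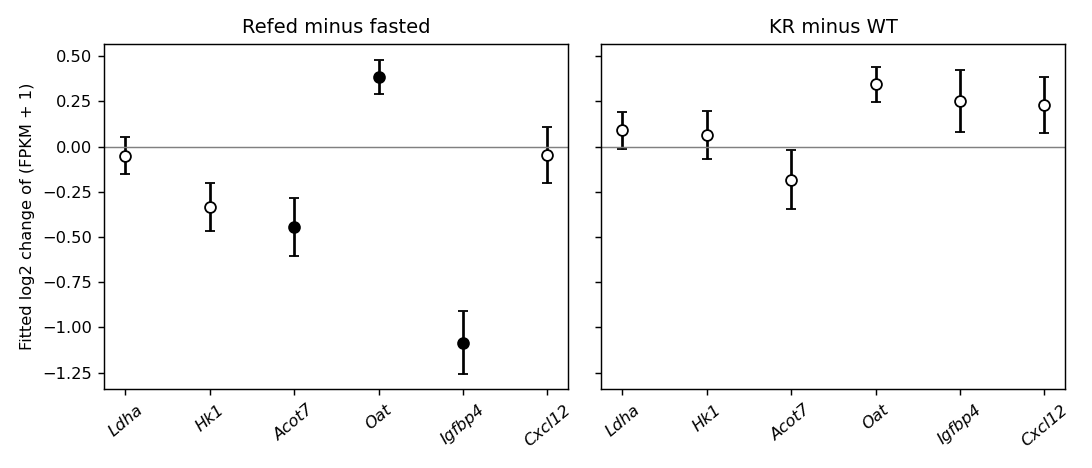
Fitted log2 change of FPKM + 1 with its moderated standard error for the 6 tested genes, refed minus fasted on the left and KR minus WT on the right; filled points have an adjusted p under 0.05. Igfbp4 (-1.08), Acot7 (-0.44) and Oat (0.39) are filled on the left and 0 on the right.

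Further genes described as low in beta cells gave a wider view. Of 11 such genes 7 were tested, and 4 of these fell with refeeding, 0 rose and 3 did not pass, at a median of -0.53. Among all tested genes 56.9% were called, 29.2% down and 27.7% up, so the number called lies near the share of all genes. Lmo4, a LIM-domain cofactor, fell by 1.38 ± 0.10 (adjusted p = 1.89e-05), with 3.85 and 3.24 FPKM in refed KR and WT, against 13.1 and 8.95 in fasted KR and WT. Cat, which encodes the peroxide-degrading enzyme catalase, fell by 0.92 ± 0.09 (adjusted p = 7.5e-05), with 5.59 and 6.77 FPKM in refed KR and WT, against 12.8 and 12.4 in fasted KR and WT. Zyg11b fell by 0.86 and the RNA-binding protein gene Zfp36l1, which passed the filter on low values through the fasted libraries, by 0.53. None of the 7 passed between genotypes, and their median there was -0.10, against -0.04 over all genes. Rest, a neuronal gene repressor that beta cells lack, was at 0.0414 to 0.196 FPKM.

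The mitochondrial route of pyruvate was followed in genes of its entry and of the shuttles that carry NADH electrons. Of 14 tested genes 8 were higher in refed libraries, 2 lower and 4 not called, at a median of 0.21. Among all tested genes 27.7% were called higher and 29.2% lower. Slc25a13, a mitochondrial aspartate-glutamate carrier, rose by 0.65, the cytosolic malate dehydrogenase gene Mdh1 by 0.57, and Pdhb, a pyruvate dehydrogenase subunit gene, by 0.54. Got1, the cytosolic aspartate aminotransferase gene, fell by 0.71. Of 9 tested glucose phosphorylation and lactate partners 5 rose and 3 fell, led by the glucose transporter genes Slc2a2, which rose by 1.03, and Slc2a1, which fell by 0.93.

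HIF, which drives Ldha in hypoxic cells, acts on many glycolytic genes. Of 15 tested HIF pathway genes, 5 were called higher in refed libraries and 5 lower, at a median of -0.01, and 0 passed between genotypes. Among all tested genes 27.7% were called higher in refed libraries and 29.2% lower. Epas1 fell by 0.59, Egln1 by 0.54 and Vegfa by 0.45. Of 9 tested genes for repressors reported at disallowed genes, 4 fell with refeeding, 0 rose and 5 did not pass. Ezh2, the Polycomb methyltransferase gene, fell by 0.45, the corepressor gene Rcor1 by 0.37, the DNA methyltransferase gene Dnmt3a by 0.34 ± 0.07 (adjusted p = 0.00368) and the Polycomb gene Suz12 by 0.27. None of the 9 passed between genotypes, and Dnmt3a had 16.9 and 15.97 FPKM in refed KR and WT, against 20.7 and 21.3 in fasted KR and WT. The rows of Mir29a and Mir29b-1 are listed at 0 in every library and those of Mir29b-2 and Mir29c have no usable value; libraries of poly-A RNA do not measure mature microRNAs.

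**Figure D5:**
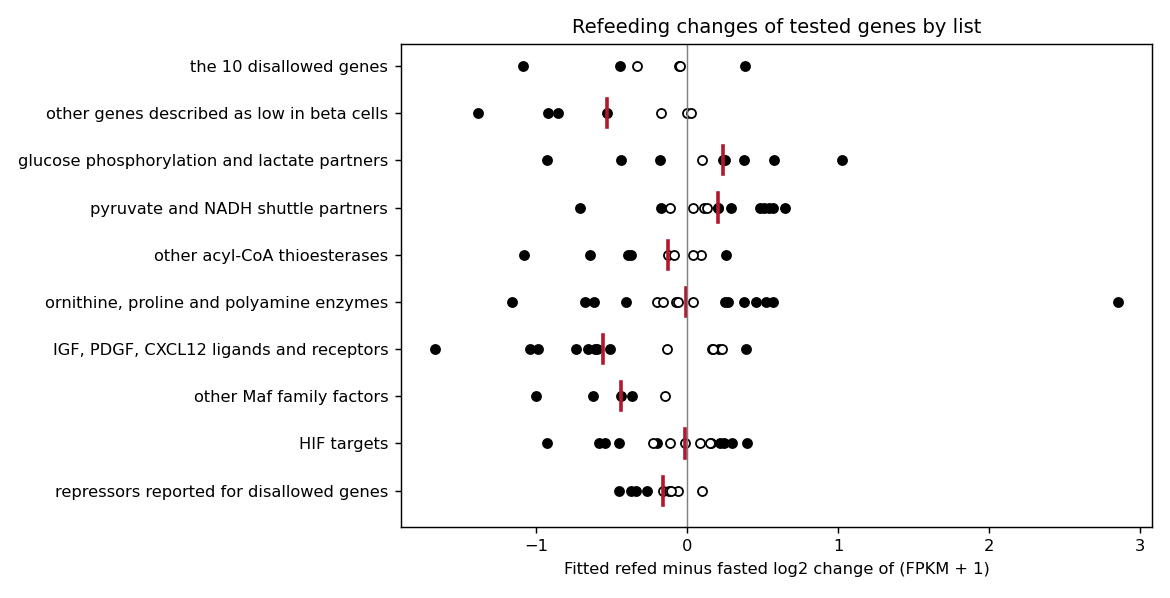
Fitted refed minus fasted log2 change of FPKM + 1 for each tested gene (points, filled where the adjusted p is under 0.05), by gene list; red lines are list medians, drawn for all but the 10 disallowed genes. The pyruvate and NADH shuttle genes lie mostly right of 0, and the other low genes and the IGF, PDGF and CXCL12 genes mostly left; the far right point is Amd1, near 0 FPKM in both fasted libraries.

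The genes whose centred log2(FPKM + 1) over the 4 libraries lay nearest to that of Ldha, by Euclidean distance among 9202 genes of at least 5 FPKM, were D2hgdh (0.0134), Sik2 (0.0252) and Pan2 (0.0366). D2hgdh had 10.05 and 8.36 FPKM in refed KR and WT and 9.26 and 9.62 in fasted KR and WT. For Slc16a1, among 9203 genes, they were Tfrc (0.0201), Ldoc1l (0.0248) and Derl2 (0.0278). Tfrc had 26.7 and 25.0 FPKM in refed KR and WT, against 32.6 and 31.1 in fasted KR and WT, a smaller change in ratio than that of Slc16a1, which the pseudocount of 1 shrinks. With 4 libraries such likeness describes this scale only.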

How the data were processed

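Per the submitters' processing notes, bcl2fastq 1.8.4, TopHat2 2.0.4 and build mm9 were used. Each deposited table holds FPKM with bounds and a status, per the file headers; what program and annotation made them is not given in the sources used here. Rows of the same symbol were summed and values not marked OK were treated as missing, which left 189 symbols incomplete. FPKM are not counts, so limma 3.58.1 (R 4.3.3) was fitted to log2(FPKM + 1) over the 4 libraries with feeding state and genotype as terms and a mean-variance trend, for the 11953 genes with a mean of at least 1 FPKM. Each gene has 1 residual degree of freedom and a prior worth 7.58, so the spread of other genes between these pooled libraries carries most of each p-value, and fold changes on this scale understate those of low genes. Implied fragments are the squared ratio of FPKM to its error, taken as the upper bound minus FPKM, divided by 2. They lay within 0.05 of a whole number for 73.9% to 74.7% of genes under 100 fragments. Ratios have exact binomial intervals (95%) on rounded implied fragments. On data simulated with genotype changes, the fit recovered most changed genes but made more false genotype calls than its threshold allows. That recovery is not given here by size of change. It therefore does not show whether genotype differences as small as those of the members, at most 0.34 (Oat), would be found. In all, 8 alternatives were tried. Starts are printed counted from 1, taking the deposited start as counted from 0. Promoter windows are from RefSeq, GRCm38.p6. The members, the gene lists and the alternatives were chosen with earlier results of these data known. Named genes are the members, up to 4 called genes with the largest change per list and comparison, a fixed set of relatives and partners, and the 3 genes nearest in pattern to Ldha and to Slc16a1.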

Additional observations from a re-analysis of the deposited data

Results flagged for a closer look

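Several differences pointed in opposite directions in the 2 feeding states or the 2 genotypes. None of these contrasts was tested, since each rests on single libraries, and all values are on the log2(FPKM + 1) scale. The KR minus WT difference of Igfbp4 was -0.0089 in the refed and 0.52 in the fasted pair, a difference of -0.53, the largest among the 10 genes; the bounds were separate in the fasted pair only, and the refed value turned to 0.0089 with libraries rescaled by the median of ratios, so that both pairs then had the same sign. Ldha had refed minus fasted differences of 0.09 in KR and -0.19 in WT, and KR minus WT differences of 0.23 refed and -0.05 fasted, a difference of 0.29 either way, with overlapping bounds throughout. Cxcl12 changed with refeeding by -0.17 in KR and 0.08 in WT, a difference of -0.25, with overlapping bounds. For Pdgfra the KR minus WT difference was -0.07 refed and 0.14 fasted, a difference of -0.2, where it is listed at 0 in refed KR. Hk2 had refed minus fasted differences of -0.06 in KR and 0.0013 in WT, a difference of -0.06.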

How the results depend on the processing

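The 12 fitted changes of the 6 tested members had 86 values under the alternatives, of which 78 kept both direction and side of the threshold, 5 lost the call, 3 gained it and 0 reversed. With no filter on low values 0 genes were called between genotypes and 0 between feeding states, and 0 members. With a filter of 5 FPKM the genotype call count was 252, and Ldha was the single member left, so 0 members were called between feeding states. The genotype count was 95 with a pseudocount of 5, 5 without trend, 228 with a robust prior and 749 with limma-voom on implied fragments, against 151, and 0 members passed in any of them. Rescaled by the median of ratios, 143 genes passed between genotypes, with 64.3% higher in KR, against 47.7% without rescaling; the median of all genes was then -0.0017, against -0.0402. Hk1 passed between feeding states without trend, with a robust prior and in limma-voom. Of 40 pairwise log2 ratios, a pseudocount of 0.1 moved 6 across 2-fold and one of 5 moved 1, and rescaling turned the sign of 1, Igfbp4 between KR and WT in the refed pair. No paired analysis was possible because each group has 1 library. Leaving out a library leaves 3 libraries for 3 coefficients, so no test remains; the single pairs stand in its place. Depth limits Maf, Pdgfra, Acot7, Hk2 and Slc16a1 most, with 8 or fewer fragments in refed KR.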
